A study of Mus musculus with 10 samples.

Results

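The genes described here are 8 that mark regulatory T (Treg) cells, taken by name from the 36009 genes of the deposited CT26 table: Foxp3, Il2ra, Ikzf2, Ikzf4, Ccr8, Tnfrsf18, Tnfrsf4 and Icos. All 8 were among the 16041 genes with enough counts to be tested. PolyA RNA was sequenced from 10 CT26 tumors grown under the skin of female BALB/c mice, wild type and untreated when the tissue was taken. CT26 is a mouse colorectal carcinoma line, so both groups are grafts of 1 line in 1 strain, and the labels give no age. Each tumor was resected in part, and a hydrogel releasing poly(I:C), a synthetic double-stranded RNA, was then placed on what remained. Responders were the 6 mice whose tumors later regressed completely and non-responders were the 4 whose tumors grew without delay, and all 10 had been selected from the treated mice by that outcome. The question the comparison addresses is whether tumors with different later outcomes already differed before treatment.

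Treg cells are CD4 T cells that restrain other immune cells, and the transcription factor Foxp3 defines their identity. They depend on IL-2 taken up through a receptor that contains Il2ra (CD25), since they make little IL-2 of their own, and STAT5 carries that signal to the nucleus. In tumors, activated Treg cells commonly carry the chemokine receptor Ccr8 and the costimulatory receptors Tnfrsf18 (GITR), Tnfrsf4 (OX40) and Icos. Of the 8 genes, Foxp3 and Ccr8 are the closest to being Treg markers, whereas Il2ra, Tnfrsf18, Tnfrsf4 and Icos also appear on other activated T cells and Ikzf2 and Ikzf4 in several other cells.

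None of the 8 Treg genes changed between responders and non-responders at an adjusted p under 0.05 (edgeR quasi-likelihood test with Benjamini-Hochberg adjustment), where 8.06% of the genes tested did. The adjusted share varied widely with single tumors. The 1293 genes it stands for became 0 without non-responder 4 (4106 at an unadjusted p under 0.05), 16 without non-responder 1 and 17 without responder 3. Over all fits without 1 tumor, 0 to 1897 genes passed, and 3654 to 4965 had an unadjusted p under 0.05. The count of Treg genes that passed was 0 in each case. At an unadjusted p under 0.05 the count was 1 of 8 by edgeR, against 29.1% of the genes tested. DESeq2 called 0 of 8 after adjustment (16.7% of genes) and 2 of 8 before (29.3%), and limma-voom 0 of 8 (6.75%) and 1 of 8 (28.8%). Without a filter on low counts edgeR called 0 of 8 after adjustment (3.61%) and 2 of 8 before (19.5%), and on libraries thinned to the smallest total 0 of 8 (7.91%) and 3 of 8 (28.1%). The groups overlapped in all 8 genes, while they were separate in 10.4% of the genes tested. All 8 fold changes were estimated above 0, as were 48.2% of those over all genes tested, and their median was 0.21 on the log2 scale against -0.01 for all genes. In the same tumors, the T cell gene Cd3e and the CD8 gene Cd8a had far larger estimated differences, described further on. In whole tumor tissue, fewer cells of a type and less RNA per cell cannot be told apart.

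The libraries held 29065126 to 38042544 estimated counts in responders and 23374649 to 32986456 in non-responders, and no pair of the 10 libraries agreed within sampling noise. A Treg gene received 25 to 772.9 counts in a tumor. Levels are given in CPM, counts scaled to the normalized library size. The Treg label was checked first. Foxp3, Cd3e and Cd4 were present in every tumor, but Ctla4, an inhibitory receptor abundant on Treg cells, was listed at 0 in 4 of 10 tumors and reached at most 25.4 counts. Whether the quantification assigned all Ctla4 reads cannot be read from the counts, so these zeros do not show that the gene was silent. The carcinoma label was also checked, and the epithelial genes Krt8, Krt18, Epcam and Vil1 had at most 14, 3, 19 and 4 counts in any tumor, while the intestinal transcription factor Cdx2 had 13 to 40. Levels this low do not bear out the label, which rests on the name of the line. Whether the quantification assigned all reads of these genes cannot be read from the counts either.

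The transcription factors came first in the order of roles. Foxp3 lies on chromosome X at 7573644 to 7595245 of GRCm38, on the plus strand. Its level in responders was lowest at 5.73, had a median of 8.09 and was highest at 10.6 CPM, and the non-responders had 6.18, 7.39, 7.07 and 7.90 CPM. The lowest and the highest of the 10 values were both in responders, so the non-responders lay inside the responder range. The mean was 8.14 ± 1.82 CPM (SD, n = 6) against 7.13 ± 0.725 CPM (SD, n = 4), and the log2 fold change was 0.19 with a 95% confidence interval of -0.16 to 0.55 (edgeR, adjusted p = 0.465). Exons of Foxp3 share 853 bases with Flicr, a noncoding gene on the same strand, and on the other strand 590 bases with Ccdc22, 373 with Gm36995 and 266 with Ppp1r3f. Reads from the bases shared with Flicr cannot be told apart by strand, and for the others the strand setting of the counting was not stated. Flicr and Gm36995 were absent from the deposited counts, so their levels could not be read. Ccdc22 had 36.5 CPM in responders and 39.1 CPM in non-responders, and Ppp1r3f had 3.84 and 2.92 CPM, with edgeR adjusted p values of 0.258 and 0.0833.

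Ikzf2 (Helios), an Ikaros family factor found in most Treg cells, spans 69531214 to 69687245 of chromosome 1 on the minus strand. Responders ranged from 14.3 to 18.1 CPM with a median of 16.3, and non-responders had 9.08, 18.6, 18.3 and 13.5 CPM. Non-responders 2 and 3 exceeded every responder and the other two fell below all of them. The log2 fold change was 0.13 (95% confidence interval -0.24 to 0.51, edgeR adjusted p = 0.648). Ikzf4 (Eos), a related factor that acts with Foxp3 to silence genes, spans 128630843 to 128645991 of chromosome 10 on the minus strand. Its responders ranged from 2.48 to 4.36 CPM with a median of 3.73, and its non-responders had 2.22, 3.58, 4.81 and 3.80 CPM. Its means differed least of the 8, at 3.63 ± 0.679 CPM (SD, n = 6) and 3.60 ± 1.07 CPM (SD, n = 4), and the interval of its log2 fold change of 0.01 ran from -0.44 to 0.47.

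Il2ra, a chain of the high-affinity IL-2 receptor, spans 11642807 to 11693193 of chromosome 2 on the plus strand. Responders ranged from 12.9 to 21.6 CPM with a median of 15.8, and non-responders had 10.7, 16.7, 18.9 and 18.3 CPM. The responder median was below that of the non-responders, 17.5 CPM, although the responder mean was the higher, at 16.8 ± 3.66 CPM (SD, n = 6) against 16.2 ± 3.78 CPM (SD, n = 4). The log2 fold change was 0.06, with an interval of -0.35 to 0.46 (edgeR adjusted p = 0.876). Ccr8, the receptor for the chemokines Ccl1 and Ccl8, spans 120092114 to 120094906 of chromosome 9 on the plus strand. It was the least counted Treg gene, with 25 to 76 counts in a tumor. Responders ranged from 1.13 to 1.98 CPM with a median of 1.69, and non-responders had 1.01, 1.49, 1.26 and 1.72 CPM. Only 3 responders exceeded every non-responder, and the log2 fold change of 0.23 had an interval of -0.24 to 0.71 (edgeR adjusted p = 0.510).

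The costimulatory receptors had the largest estimates. Tnfrsf18 (GITR) and Tnfrsf4 (OX40), both of the TNF receptor family, are neighbors on the plus strand of chromosome 4, at 156026164 to 156028895 and at 156013843 to 156016612, with 9551 bases between them. Tnfrsf18 ranged from 6.24 to 10.1 CPM in responders with a median of 7.18, and was 4.08, 6.79, 6.59 and 5.34 CPM in non-responders. Of the responders, 4 of 6 exceeded every non-responder, and the means were 7.49 ± 1.35 CPM (SD, n = 6) and 5.70 ± 1.26 CPM (SD, n = 4). The log2 fold change was 0.40 (95% confidence interval 0.03 to 0.76), and the edgeR p was 0.0364 before and 0.142 after adjustment. An antisense gene, Gm16008, shares 414 exon bases with Tnfrsf18 and was absent from the deposited counts.

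Tnfrsf4 ranged from 5.15 to 9.54 CPM in responders with a median of 7.93, and was 4.40, 6.68, 5.68 and 7.27 CPM in non-responders. Again 4 of 6 responders exceeded every non-responder, and responder 4 had the second lowest level of the 10. The log2 fold change was 0.36 (95% confidence interval -0.03 to 0.76, edgeR adjusted p = 0.206). Icos, a receptor of the CD28 family, spans 60977927 to 61000320 of chromosome 1 on the plus strand. It ranged from 11.6 to 21.4 CPM in responders with a median of 15.2, and was 7.67, 14.5, 12.6 and 11.8 CPM in non-responders. Of the responders, 3 of 6 exceeded every non-responder, and the log2 fold change of 0.44 was the highest estimate of the 8 (95% confidence interval -0.01 to 0.88, edgeR adjusted p = 0.181).

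**Figure D1:**
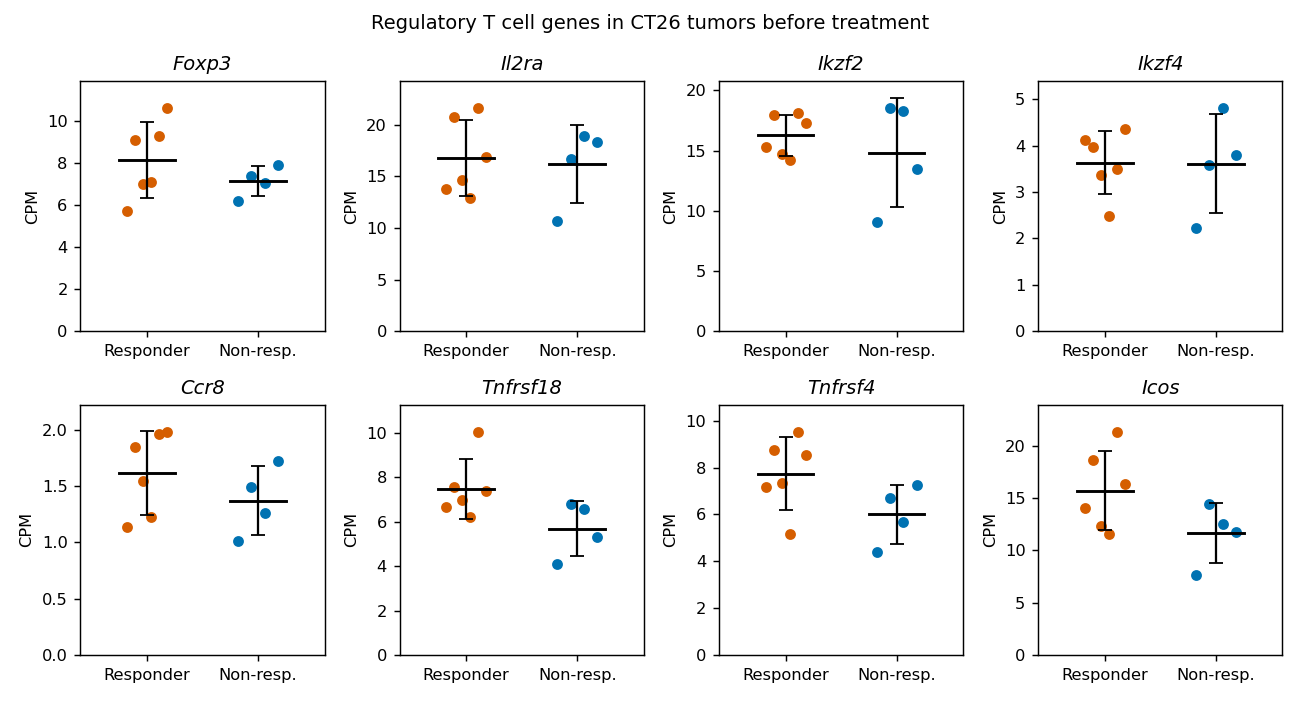
CPM of each of the 8 Treg genes (vertical axes, each from 0) in 6 responder and 4 non-responder tumors, with 1 point per tumor, a line at the mean and a bar of 1 SD on each side. The groups overlap in every panel, and the first non-responder is the lowest point of all panels but that of Foxp3.

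Single tumors stood at the ends of the range for many of the genes at once. Non-responder 1 had the lowest level of the 10 tumors in 7 of the 8 genes, and for Foxp3 it was next to lowest above responder 1. Responder 5 was highest for Il2ra, Tnfrsf18, Tnfrsf4 and Icos, and responder 6 for Foxp3 and Ccr8. Responder 4 was among the 3 lowest tumors in 7 of 8 genes, so high and low Treg gene levels occurred among responders. Non-responder 1 was also lowest for Cd3e, Cd4, Cd8a and Ptprc, and responder 5 was highest for Cd3e, Cd4 and Ptprc.

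Levels were set against each other per kilobase of merged exon, to allow for gene length. Merged exons join all annotated transcripts of a gene, so the order below depends on this choice of length, and no other was tried. Tnfrsf4 was highest at 5.17 ± 1.20 CPM per kilobase (SD, n = 10), followed by Tnfrsf18 at 4.44 ± 1.02, Icos at 4.11 ± 1.14, Il2ra at 2.89 ± 0.615 and Foxp3 at 1.69 ± 0.330. Ikzf2 at 1.35 ± 0.257, Ccr8 at 1.29 ± 0.300 and Ikzf4 at 0.604 ± 0.133 CPM per kilobase completed the order. The steps from Icos to Il2ra, from Il2ra to Foxp3 and from Ccr8 to Ikzf4 held in 10 of 10 tumors. Tnfrsf4 was above Tnfrsf18 in 8 tumors and Tnfrsf18 above Icos in 9, with means closer than the SD between tumors, and Foxp3 was above Ikzf2 in 8. Ikzf2 was above Ccr8 in only 4 of 10 tumors, so this pair has no settled order.

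Genes that mark T cells or leukocytes in general were compared in the same libraries. Cd3e, a chain of the T cell receptor complex, was 17.2 ± 8.43 CPM (SD, n = 6) in responders and 7.17 ± 2.12 CPM (SD, n = 4) in non-responders. Cd8a, a chain of the coreceptor of cytotoxic T cells, was 35.1 ± 21.6 CPM (SD, n = 6) against 9.42 ± 5.72 CPM (SD, n = 4). Their log2 fold changes were 1.27 and 1.91, just short of the threshold (edgeR adjusted p = 0.0523 and 0.0535). Ptprc (CD45), carried by all leukocytes, was higher in responders, at 380.5 ± 63.1 CPM (SD, n = 6) against 250.6 ± 55.6 CPM (SD, n = 4), and its groups did not overlap (log2 fold change 0.60, edgeR adjusted p = 0.0413). That call was lost, like all others, without non-responder 4. Cd4, which macrophages can also carry, differed by 0.27 (edgeR adjusted p = 0.201). Over the T cell list, 7 of 7 genes tested were estimated higher, with a median log2 fold change of 0.91. With edgeR 0 of 7 passed after adjustment, and 7 of 7 had an unadjusted p under 0.05, against 29.1% of the genes tested. DESeq2 called 5 of 7 higher after adjustment, against 16.7% of genes in either direction. Without responder 4 edgeR called 4 of 7, and without any other single tumor 0 of 7. The summed T cell markers ran from 42.2 to 137.5 CPM in responders and from 21.9 to 50.3 CPM in non-responders.

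**Figure D2:**
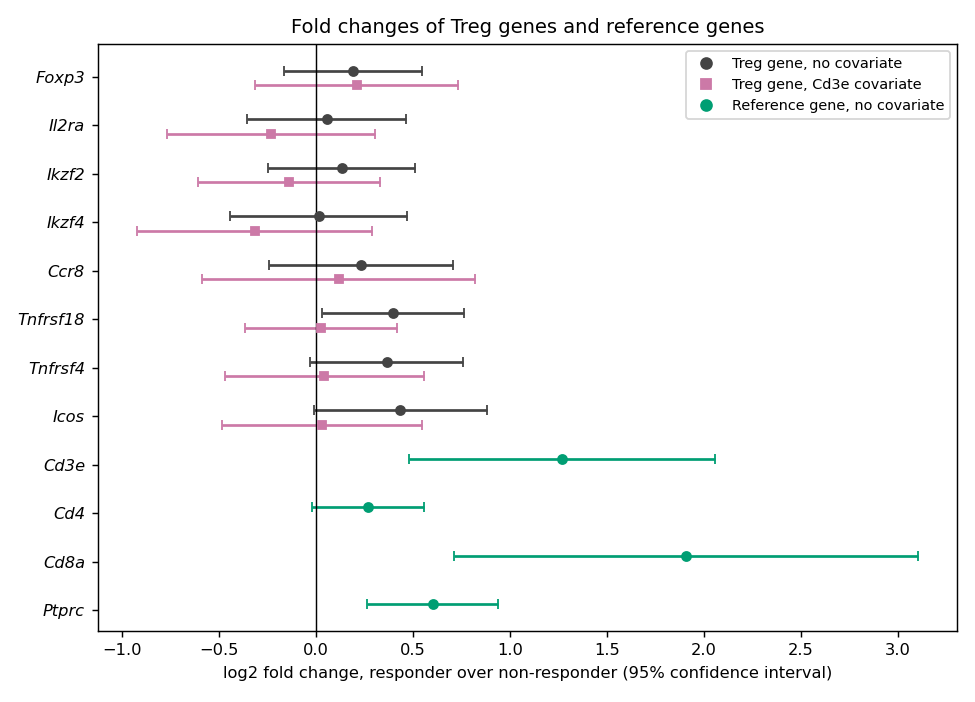
Log2 fold change of responders over non-responders (horizontal axis) with its 95% confidence interval for the 8 Treg genes and for Cd3e, Cd4, Cd8a and Ptprc. Circles have no covariate and squares have the Cd3e level as covariate. The Treg estimates lie between 0.01 and 0.44 without the covariate, against 1.27 for Cd3e and 1.91 for Cd8a.

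Foxp3 was therefore set against these genes within each tumor, as a ratio of CPM. Cd8a amounted to 1.49 to 10.9 times the Foxp3 level in responders, with a median of 3.56, and to 0.595, 1.67, 2.26 and 0.721 times in non-responders. Responders 1, 5, 3 and 2 exceeded every non-responder, and responders 4 and 6 lay inside their range. The log2 ratio averaged 1.88 ± 1.09 (SD, n = 6) and 0.17 ± 0.92 (SD, n = 4), a difference of 1.70 (two-sided exact permutation test, p = 0.0524, adjusted over 4 ratios 0.0952, smallest possible p 0.00476), which missed the threshold. Cd3e amounted to 1.13 to 4.50 times Foxp3 in responders, with a median of 1.79, and to 0.752, 1.24, 1.23 and 0.786 times in non-responders. Its log2 ratio differed by 1.003, with the same exact permutation p of 0.0524 and adjusted p of 0.0952. The ratio of Ptprc to Foxp3 differed by 0.45 (exact permutation p = 0.0714, adjusted p = 0.0952). That of Cd4 to Foxp3 was nearly level, at 3.45 ± 0.325 (SD, n = 6) and 3.33 ± 0.212 (SD, n = 4), with a difference of 0.12 (exact permutation p = 0.562).

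**Figure D3:**
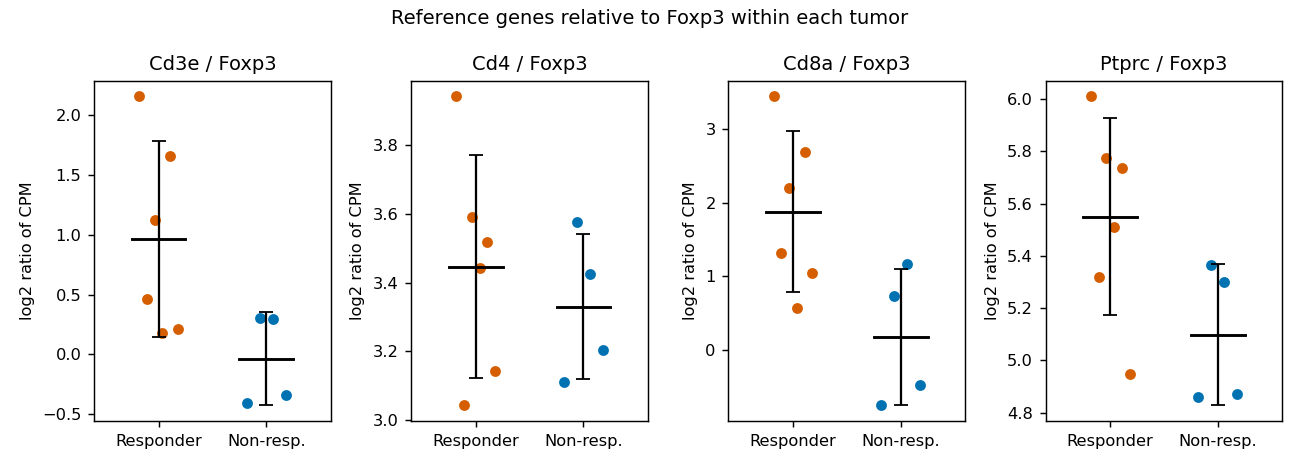
Log2 ratio of Cd3e, Cd4, Cd8a and Ptprc CPM to Foxp3 CPM (vertical axes) in each of 6 responder and 4 non-responder tumors, with a line at the mean and a bar of 1 SD on each side. For Cd3e, Cd8a and Ptprc 4 of 6 responders lie above every non-responder, and for Cd4 2 of 6 do.

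Relative to Cd3e, some Treg genes were lower in responders than in any non-responder. This held for Il2ra, at 0.535 to 1.65 times Cd3e in responders and 1.82 to 2.95 times in non-responders. Ikzf2 was at 0.593 to 1.78 and 1.96 to 2.17 times Cd3e, and Ikzf4 at 0.119 to 0.353 and 0.392 to 0.612 times. Thus 3 of 8 Treg genes had separate groups on this ratio, against 8.85% of the genes tested, and Foxp3, Ccr8, Tnfrsf18, Tnfrsf4 and Icos did not. Relative to Ptprc, 0 of 8 had separate groups, whereas 43.7% of the genes tested were lower in every responder. These ratios were not tested further. Among them Tnfrsf18 stayed closest to Ptprc, with a ratio that varied only 1.31-fold over the 10 tumors. With the Cd3e level as a covariate in edgeR, the log2 fold changes were 0.21 for Foxp3, -0.23 for Il2ra, -0.14 for Ikzf2, -0.32 for Ikzf4 and 0.12 for Ccr8. Those of the costimulatory receptors went to 0.03 for Tnfrsf18, 0.04 for Tnfrsf4 and 0.03 for Icos. No Treg gene had an unadjusted p under 0.05 in that fit, where 8.77% of the genes tested did, and the count over all genes after adjustment was 0. With the Ptprc level as covariate these were also 0 of 8 Treg genes and 5.27% of the genes tested.

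Foxp3 and Ccr8 varied together from tumor to tumor. There were 16.4 to 22.0 Ccr8 counts per 100 Foxp3 counts in a tumor, with a mean of 19.5 ± 1.93 (SD, n = 10). This ratio varied 1.35-fold, while Foxp3 itself varied 1.85-fold and Ccr8 1.96-fold in CPM. Its coefficient of variation of 9.91% was below the 12.5% to 21.6% that counting error alone gives for single tumors. A spread below counting error is smaller than these counts can resolve. It therefore does not show how closely the levels of the 2 genes were tied. The ratio was 19.8 ± 1.71 (SD, n = 6) in responders and 19.0 ± 2.41 (SD, n = 4) in non-responders. Ratios of the other 6 genes to Foxp3 varied 1.68-fold to 2.07-fold.

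Pearson's r between log2 CPM of Foxp3 and Ccr8 was 0.914 over the 10 tumors (permutation p = 0.00026, adjusted p over 7 genes = 0.00182), and Spearman's rho was 0.903 (permutation p = 0.00083, adjusted p = 0.00581). Leaving out responders 5 and 6, whose Foxp3 levels were farthest from the median, r was 0.879 (permutation adjusted p = 0.0257), and within the 6 responders it was 0.932 (exact permutation adjusted p = 0.0389). No value was computed within the 4 non-responders, which were too few. With log2 CPM centered within each group, r with Foxp3 was 0.905 for Ccr8 and 0.908 for Shld1, which is not a Treg gene of this list. An r this high was thus not particular to the Treg genes. Icos, Il2ra and Tnfrsf4 had r of 0.689, 0.692 and 0.701, each with a permutation adjusted p of 0.0486, but their Spearman's rho of 0.636, 0.697 and 0.673 had adjusted p values of 0.0948, 0.0945 and 0.0945. Without responders 5 and 6, over 8 tumors, r was 0.569 for Icos, 0.770 for Il2ra and 0.544 for Tnfrsf4, and these 3 relations no longer passed (permutation adjusted p = 0.285, 0.0914 and 0.285). The r of Il2ra was higher there than over all tumors. With relative log expression size factors in place of TMM the 3 also fell short (permutation adjusted p = 0.0504). Tnfrsf18, Ikzf2 and Ikzf4 had r of 0.581, 0.524 and 0.359 and did not pass (permutation adjusted p = 0.108, 0.141 and 0.306). Leaving out 1 tumor at a time left Ccr8 past the threshold in 10 of 10 cases, and the number of genes that passed fell from 4 to 3 without responder 1, to 2 without responder 6 and to 1 without any single one of the other tumors.

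Foxp3 was also compared with Cd3e, Cd8a and Cd4, of which Cd4 is not confined to T cells. In this comparison, chosen after seeing the data, Foxp3 had r of 0.190 with Cd3e, 0.182 with Cd8a and 0.469 with Cd4 (permutation adjusted p over 3 genes = 0.611, 0.611 and 0.516). Responder 1 stood apart, with the lowest Foxp3 level of the 10 tumors and the highest Cd8a level, 62.7 CPM. Without it, r was 0.610 for Cd3e, 0.587 for Cd8a and 0.672 for Cd4, and none of these passed (permutation adjusted p = 0.0981).

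**Figure D4:**
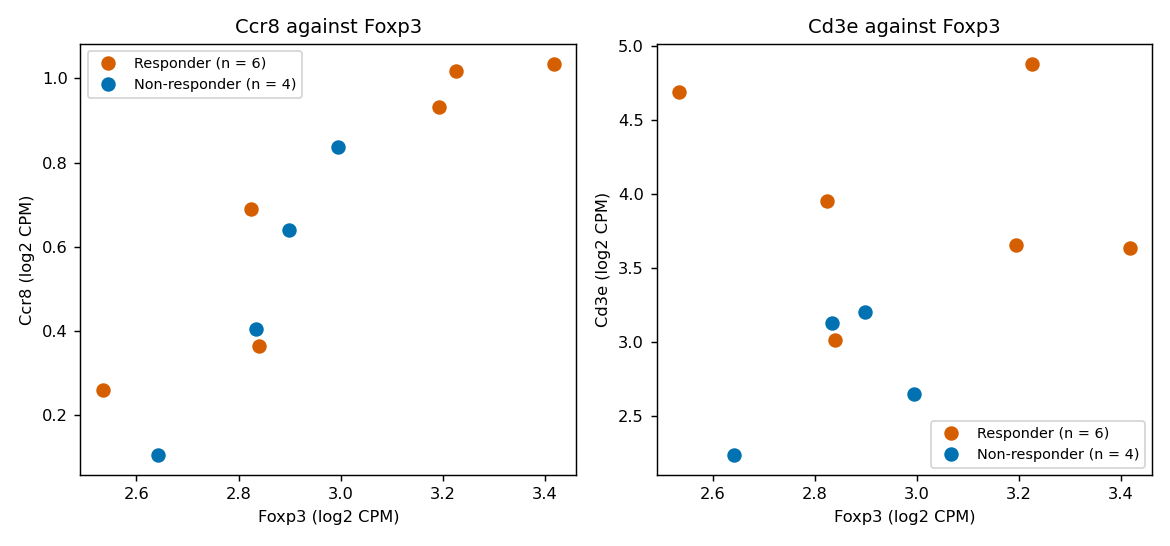
Log2 CPM of Ccr8 (left) and Cd3e (right) against log2 CPM of Foxp3, with 1 point per tumor (6 responders, 4 non-responders). Ccr8 follows Foxp3 closely (r = 0.914), and Cd3e does not (r = 0.190), with responder 1 at the lowest Foxp3 and a high Cd3e.

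The promoter windows of Foxp3 and Ccr8 are shown for reference. Whether their sequence bears on the joint variation of the 2 genes was not tested. RefSeq lists windows of 300 bases, 250 before and 50 after a start site, on GRCm38.p6 for 5 of the 8 genes, with 2 for Foxp3. Icos, Ikzf2 and Ikzf4 had no window in that list. All windows below are on the plus strand, at chrX:7579426-7579725 and chrX:7580233-7580532 for Foxp3 and at chr9:120091883-120092182 for Ccr8. Capitals mark matches on either strand to TTCNNNGAA, the letters STAT factors bind, or to GGAAA, the core letters for NFAT.
Foxp3 window 1: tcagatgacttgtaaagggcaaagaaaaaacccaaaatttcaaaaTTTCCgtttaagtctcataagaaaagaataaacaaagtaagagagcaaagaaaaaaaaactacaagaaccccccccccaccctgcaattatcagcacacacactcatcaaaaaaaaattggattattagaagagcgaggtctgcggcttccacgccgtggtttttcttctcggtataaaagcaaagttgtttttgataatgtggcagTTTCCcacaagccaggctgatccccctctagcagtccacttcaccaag
Foxp3 window 2: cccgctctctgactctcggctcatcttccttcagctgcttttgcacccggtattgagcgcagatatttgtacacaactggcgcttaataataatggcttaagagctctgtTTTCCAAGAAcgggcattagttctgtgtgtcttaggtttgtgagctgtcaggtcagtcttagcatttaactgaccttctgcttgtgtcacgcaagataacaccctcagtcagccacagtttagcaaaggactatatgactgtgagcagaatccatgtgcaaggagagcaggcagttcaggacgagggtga
Ccr8 window: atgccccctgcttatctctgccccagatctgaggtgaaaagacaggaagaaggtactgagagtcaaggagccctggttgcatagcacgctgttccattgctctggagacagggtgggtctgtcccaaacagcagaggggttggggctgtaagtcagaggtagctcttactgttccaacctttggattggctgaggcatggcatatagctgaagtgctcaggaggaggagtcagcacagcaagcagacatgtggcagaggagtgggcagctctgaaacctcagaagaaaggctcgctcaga

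The STAT letters stood in 2 of the 6 windows, the second of Foxp3 and that of Tnfrsf18, and in 8.3% of 32851 RefSeq windows of that length. In the second Foxp3 window they overlap the NFAT letters. The NFAT letters stood in 5 of 6 windows, all but that of Ccr8, and in 61.3% of all windows. TGTGGT, the RUNX letters, stood in 0 of 6 windows and in 16.8% of all.

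The partners of the Treg genes were followed in 4 lists. Of the ligands, 0 of 5 tested changed with edgeR, and the median log2 fold change was 0.04. At an unadjusted edgeR p under 0.05 the count was 2 of 5, against 29.1% of the genes tested. DESeq2 called 2 of 4 higher after adjustment, against 16.7% of genes in either direction. Without responder 4 or without non-responder 2 edgeR called 1 of 5. Icosl, the ligand of Icos, was 16.6 ± 1.50 CPM (SD, n = 6) against 13.3 ± 1.63 CPM (SD, n = 4), a log2 difference of 0.32 (edgeR adjusted p = 0.0583). Ccl8, a ligand of Ccr8 that macrophages make, was 499.9 ± 157.2 CPM (SD, n = 6) against 277.3 ± 104.9 CPM (SD, n = 4), a log2 fold change of 0.85 (edgeR adjusted p = 0.0882). Il2 itself had 1.04 to 7.42 counts in a tumor and was not tested.

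In the list of IL-2 receptor chains and STAT5 signaling, 2 of 10 genes rose in responders, against 4.71% of the genes tested, and none fell, against 3.35%. Without non-responder 1, non-responder 4 or responder 3 the count was 0 of 10, as it was with either covariate. DESeq2 called 5 of 10 higher, against 16.7% of genes in either direction. The 2 called by edgeR were Bcl2, a survival factor, at 0.42 ± 0.09 on the log2 scale (SE, edgeR adjusted p = 0.0283), and Stat5b, a STAT5 protein, with 0.17 ± 0.04 (SE, edgeR adjusted p = 0.0321). All 10 estimates were above 0, with a median of 0.19. Among the transcription factors that work with Foxp3, 2 of 16 rose and none fell, with a median of 0.22, and 0 rose without responder 2, responder 3, non-responder 1 or non-responder 4 or with either covariate. DESeq2 called 3 of 16 higher. The 2 called by edgeR were Ikzf1 (Ikaros) at 0.65 ± 0.14 (SE, edgeR adjusted p = 0.0310) and Ikzf3 (Aiolos) at 1.05 ± 0.28 (SE, edgeR adjusted p = 0.0457), both expressed widely in lymphocytes, whereas their relatives Ikzf2 and Ikzf4 had 0.13 and 0.01. The difference between these fold changes was not tested.

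Of the suppression and surface molecules, 4 of 21 tested rose, against 4.71% of the genes tested, and none fell, with a median of 0.27. Without non-responder 1, non-responder 4 or responder 3 the count was 0 of 21, as it was with the Cd3e or the Ptprc covariate, and it was 1 to 5 without any other single tumor. DESeq2 called 7 of 21 higher, against 16.7% of genes in either direction. Ebi3, a subunit of the cytokines IL-27 and IL-35, had a log2 fold change of 0.91 (edgeR adjusted p = 0.0231). Entpd1 (CD39), which breaks down extracellular ATP, had 0.65 (adjusted p = 0.0358), the IL-10 receptor chain Il10ra had 0.65 (adjusted p = 0.0401) and Fgl2, an inhibitory fibrinogen-like protein, had 0.99 (adjusted p = 0.0453). Groups were separate in 4 of 21 genes of the list, which were these 4, against 10.4% of the genes tested. The 4 were named for their small p in the same tumors, so the separation is no further support. Myeloid cells express these 4 genes as well. Of the macrophage markers 2 of 4 rose, against 4.71% of the genes tested, Adgre1 by 0.87 and Cd68 by 0.47 (edgeR adjusted p = 0.0310 and 0.0299). Csf1r had 0.24 and Mrc1 -0.13 (edgeR adjusted p = 0.130 and 0.494), and the list median was 0.36. The 4 macrophage markers summed to 1083 to 1521 CPM in responders and 995.6 to 1235 CPM in non-responders. Their part in these 4 changes was not tested.

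**Figure D5:**
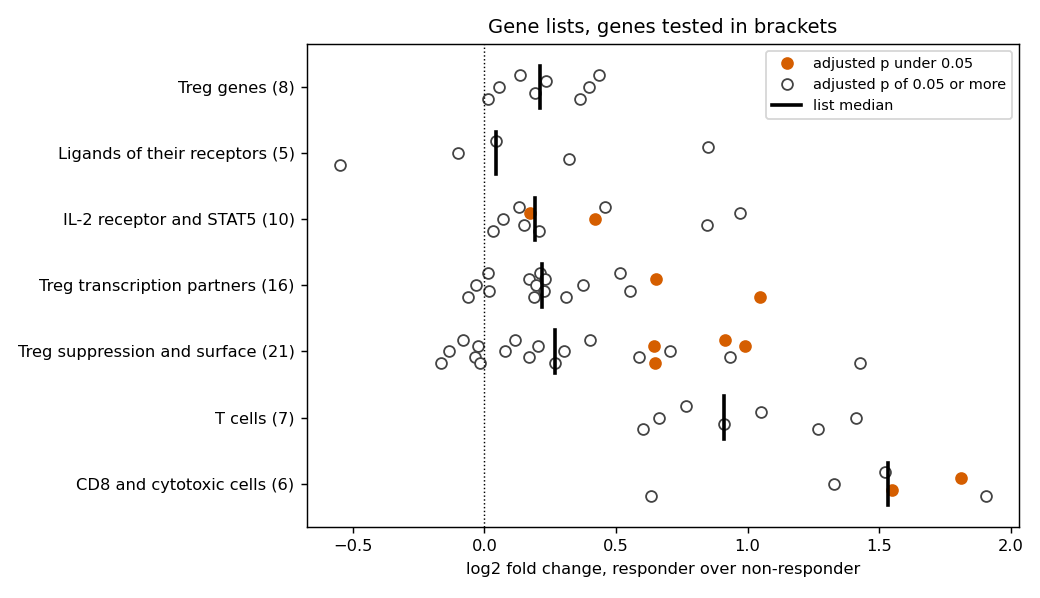
Log2 fold change of responders over non-responders (horizontal axis) for each tested gene of 7 lists (rows), with filled points for genes with an edgeR adjusted p under 0.05 and a bar at the list median. No Treg gene is filled, and the medians run from 0.04 for the ligands to 1.54 for the CD8 and cytotoxic list.

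Markers of the other cells that could carry these genes were read from the same fit, in which 4.71% of the genes tested rose and 3.35% fell. The lists are short, so a single call says little about a cell type. In the CD8 and cytotoxic list 2 of 6 genes rose (Cd8b1 and Nkg7), the median was 1.54 and the summed level was 97.9 to 238.3 CPM in responders and 19.7 to 98.2 CPM in non-responders. In the NK list 1 of 4 rose (Klre1, median 0.96), while Klra8 had at most 1 count. Of the group 2 innate lymphoid cell markers, which include Gata3, 0 of 4 tested rose and Areg, a growth factor that Treg cells also make, fell by 1.38 (edgeR adjusted p = 0.0327), while Il5 and Il13 had at most 11 and 17 counts. The CD4 list (0 of 2 tested), the B cell list (0 of 3) and mature dendritic cells (0 of 5) had no call, with medians of 0.16, 0.45 and -0.15. In the mast cell list 1 of 4 rose (Kit, median 0.87) and in the skeletal muscle list 2 of 3 (Acta1 and Ckm, median 1.02). The endothelial and fibroblast lists had 0 of 3 calls each, with medians of 0.25 and -0.01. Without non-responder 4 no gene in these lists passed with edgeR. DESeq2 called 5 of 6 CD8 and cytotoxic, 3 of 4 NK, 2 of 4 mast cell and 1 of 2 B cell genes higher, against 16.7% of genes in either direction. Its counts in the remaining lists of this paragraph were those of edgeR. The part of these cells in the Treg gene values was not tested beyond the ratios and covariates given.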

How the data were processed

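PolyA RNA of 10 CT26 tumors was sequenced as 150 bp paired ends. The authors reviewed read quality, quantified transcripts by pseudoalignment with Kallisto and summed them to genes with tximport on GRCm38, and they deposited estimated counts per gene, whose totals differ between libraries. Which annotation release was used, how tximport scaled the counts and whether strand was used are not given in the sources used here. Pseudoalignment divides reads between genes with shared sequence.

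Groups followed the response label of each sample, and tumors were numbered in accession order. The labels give no batch. Tumors came from separate mice. Estimated counts were rounded and fitted in R 4.3.3 with edgeR 4.0.16 (filterByExpr with a minimum count of 10 and a minimum total of 15, TMM, two-sided quasi-likelihood test), with Benjamini-Hochberg adjustment over all 16041 genes and a threshold of 0.05. CPM used TMM-scaled libraries, and log2 CPM had a prior count of 2. Ratios were tested by exact permutation over 210 splits and correlations by 100000 permutations. Coordinates and exon lengths came from a GENCODE annotation of GRCm38 that matched 35991 of 36009 identifiers, and promoter windows from RefSeq.

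The genes and lists were chosen with earlier results of these data known. The genes named are the 8 Treg genes, 4 reference genes (Cd3e, Cd4, Cd8a, Ptprc), in each pathway list those with an adjusted p under 0.05 or otherwise the 2 with the smallest p, and the 5 genes closest to Foxp3 and to Il2ra. Marker genes that passed the threshold, Ctla4, Il2 and the genes used to check labels or overlapping exons were named after their values were seen. Alternatives were relative log expression size factors, DESeq2 1.42.0, limma-voom (limma 3.58.1), no low-count filter, thinned libraries, a Cd3e or Ptprc covariate, a prior count of 0.5 and leaving out each tumor.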

Additional observations from a re-analysis of the deposited data

Results flagged for a closer look

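The Tnfrsf18 level of responder 5, 10.1 CPM, stood apart from the other 5 responders, which lay between 6.24 and 7.55 CPM, with a gap of 0.657 of the whole range. The same tumor stood apart for the leukocyte gene Ptprc, at 499.3 CPM against 326.2 to 388.0 CPM in the other 5, with a gap of 0.643 of the range. Over the 32 sets of values examined in this way, chance alone gives about 1.6 such gaps. The Tnfrsf18 comparison did not pass the threshold with or without responder 5, and its log2 fold change stayed between 0.27 and 0.49 when any 1 tumor was left out.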

How the results depend on the processing

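No Treg gene passed the adjusted threshold under any of the 17 alternatives, in which 0 to 3 of 8 had an unadjusted p under 0.05. On thinned libraries that count was 3 of 8, against 28.1% of the genes tested. Without responder 4 it was 3 of 8, against 4750 of 15985 genes. With the Ptprc covariate it was 0 of 8, against 5.27%. Over all genes, 1293 passed with edgeR, 2573 with DESeq2, 0 with the Cd3e covariate (1406 at an unadjusted p under 0.05), 0 with the Ptprc covariate (845), and 0 to 1897 when 1 tumor was left out, with 0 without non-responder 4, 16 without non-responder 1 and 17 without responder 3. The Cd3e covariate reversed Il2ra (-0.23), Ikzf2 (-0.14) and Ikzf4 (-0.32). The Ptprc covariate reversed Il2ra (-0.46), Ikzf2 (-0.38), Ikzf4 (-0.34), Ccr8 (-0.063), Tnfrsf18 (-0.18), Tnfrsf4 (-0.045) and Icos (-0.18), and left Foxp3 at 0.08. Leaving out 1 tumor gave -0.092 to 0.14 for Il2ra, -0.033 to 0.26 for Ikzf2 and -0.15 to 0.18 for Ikzf4, and kept the other 5 genes above 0. The cause of these changes was not tested. The 4 genes correlated with Foxp3 became 1 with relative log expression size factors (Ccr8) and 1 to 3 when a tumor was left out. Foxp3 with Cd3e ran from -0.027 to 0.610 and with Cd8a from -0.043 to 0.587. The ratios to Foxp3 kept direction and side under all 13 alternatives run for each. No paired analysis was possible because the replicate numbers follow accession order and pair no tumors. Depth limits Ccr8 most, at 25 to 76 counts.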

Other observations

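The genes whose levels followed Foxp3 most closely were sought among 13732 genes with at least 1 CPM, by Pearson's r of log2 CPM centered within each group over the 10 tumors. They were Shld1 at 0.908, Ccr8 at 0.905, Xlr at 0.900, Slc26a8 at 0.897 and Vps33a at 0.891. Ccr8 was thus second, and it was the only Treg gene near the top, since Il2ra ranked 187, Tnfrsf4 271, Icos 309, Tnfrsf18 933, Ikzf2 1261 and Ikzf4 2365. Shld1, Xlr, Slc26a8 and Vps33a are not among the 8 Treg genes, so an r near 0.9 with Foxp3 was not particular to them. These are also the largest values picked from 13732 genes on 10 tumors. Cd3e (-0.05) ranked 7884 and Cd8a (-0.06) ranked 8082. The genes closest to Il2ra were Tspan33 at 0.976, Cd1d1 at 0.963, Pik3r6 at 0.945, Rab19 at 0.939 and Clec2i at 0.933, and Icos ranked 15 with 0.918, while Foxp3 ranked 801. Among the 28 pairs of Treg genes, r centered in this way ran from 0.36 for Foxp3 with Ikzf4 to 0.92 for Il2ra with Icos and for Tnfrsf18 with Icos, with a median of 0.72. All points share libraries and their scaling, and these values are descriptions only.

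Ctla4 was counted far less than Foxp3, and whether all of its reads were assigned cannot be read from the counts. It was highest in responder 3, with 25.4 counts, was at 0 in responder 1 and in non-responders 1, 3 and 4, and had 3.29 to 9.03 counts in the other 5 tumors.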
